A study of Rattus norvegicus with 15 samples.

Results

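MicroRNA levels in rat sciatic nerve collected 4 days after injury were set against levels in uninjured sciatic nerve, on 6 of the 15 arrays of a time course that ran to day 14. Each group held 3 arrays of total RNA from adult male rats. The day 0 group was normal nerve that had not been crushed, although its sample names also call it stump tissue at 0 h. The descriptions differ on the rest of the model: the treatment text gives a crush and the damaged segment itself, the design text a resection and tissue proximal to it. The strain, any pooling and whether the 3 arrays of a group came from different animals are not stated, so p-values measure only the spread between arrays, which may be technical. The results cover the 229 of the array's 350 rat miRNAs that the scanner software marked as detected on all 3 arrays of at least one of these groups.

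A miRNA is a short RNA that guides an Argonaute protein to messenger RNAs, mostly through its seed, bases 2 to 8 from the 5′ end, and lowers their stability or translation. miRNAs that share a seed form a family and can act on overlapping sets of messages. After a peripheral nerve injury, axons beyond the lesion degenerate, Schwann cells lose their myelin and become proliferating repair cells, and macrophages enter the nerve. At the time sampled here an injured nerve can therefore hold other cells, in other states, than an intact nerve, but cell content was not measured. Because whole tissue was measured, more cells of a type and more RNA per cell cannot be told apart.

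The sequences that carry the main contrasts are those of the leading rises and falls, and those of 3 families whose members moved in opposite directions. They are mature sequences from RefSeq (rat build GRCr8), 5′ to 3′, with the seed in capitals. RefSeq's table matched 183 of the 229 miRNAs. The first set holds miRNAs that rose most, of which miR-221 and miR-222 share a seed.
miR-21: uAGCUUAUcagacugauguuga
miR-130b: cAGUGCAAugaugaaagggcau
miR-18a: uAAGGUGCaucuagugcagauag
miR-132: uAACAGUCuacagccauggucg
miR-221: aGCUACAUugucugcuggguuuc
miR-222: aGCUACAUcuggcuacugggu
miR-34c: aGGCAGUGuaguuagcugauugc

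The second set holds miRNAs that fell, among them let-7c and miR-98, which have the let-7 seed.
miR-33: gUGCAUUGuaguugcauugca
miR-338: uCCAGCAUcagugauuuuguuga
miR-9: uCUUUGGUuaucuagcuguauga
miR-10b: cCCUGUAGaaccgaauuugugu
miR-26b: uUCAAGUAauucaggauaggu
let-7c: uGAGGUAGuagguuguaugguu
miR-98: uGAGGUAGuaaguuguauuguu

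The third set shows families in which the seed was the same and the direction was not, each with at least 1 miRNA that rose and 1 that fell.
miR-146b: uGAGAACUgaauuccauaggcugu
miR-146a: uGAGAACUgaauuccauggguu
miR-92a: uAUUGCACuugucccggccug
miR-25: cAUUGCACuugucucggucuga
miR-32: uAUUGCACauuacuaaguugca
miR-15b: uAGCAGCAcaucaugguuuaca
miR-16: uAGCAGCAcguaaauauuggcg
miR-195: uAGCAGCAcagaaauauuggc

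Between 200 and 222 miRNAs were detected on each day 0 array and between 229 and 235 on each day 4 array. Values are log2 levels, in which 0 is the array's own 75th percentile over the 197 miRNAs detected on all 6 arrays, and levels of different miRNAs are not compared. A value of -7.61 is the floor that was set for signals too low to measure. Replicate arrays correlated at 0.973 to 0.992 within day 0 and at 0.996 to 0.998 within day 4, and the day 0 SD was the larger for 193 of the 229 miRNAs (median SD 0.150 against 0.078). All day 0 arrays were on slide 1, scan 1 and all day 4 arrays on slide 3, scan 3, so slide, scan and injury cannot be told apart in any value below. One array stood apart in muscle miRNAs: their summed scaled signal was 21.5 on day 0 replicate 1, 0.944 and 1.63 on replicates 2 and 3, and 0.718 to 0.884 on the day 4 arrays.

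By day 4 the nerve held much more miR-31, miR-21 and miR-221/222 and less let-7, miR-338, miR-9 and miR-10b. Of 231 miRNAs tested, 64 were higher (27.7%) and 70 lower (30.3%) at an adjusted p under 0.05, 58% in all, and 95 of the 229 miRNAs did not pass. Counts for the groups, families and clusters below are to be read against these shares. Rises were the larger: 26 were 2-fold or more and 9 were 4-fold or more, against 4 falls of 2-fold or more. The detection rule limits this comparison, since 31 miRNAs entered only through day 4 and 1 only through day 0. Among the 4-fold rises, miR-31, miR-130b, miR-132, miR-21* and miR-34c were detected on no day 0 array. The median rise was 1.73-fold and the median fall 1.45-fold. The median change over all miRNAs tested was -0.0053 on the log2 scale.

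The count of rises and falls depended on how arrays were brought to a common scale. The unadjusted p was under 0.05 for 144 miRNAs. With no scaling 33 were higher (14.3%) and 124 lower (53.7%). With the percentile taken over miRNAs detected on all 15 arrays (the 15-array percentile) 47 were higher (20.3%) and 105 lower (45.5%), and with the percentile over all miRNAs 74 (32%) moved each way. Quantile normalisation gave 68 rises (29.4%) and 87 falls (37.7%), and values from the authors' deposited table gave 61 (26.5%) and 76 (33%). Under all 5 of these other scalings 29 rises and 53 falls were again called in the same direction, among them all 12 leading rises and 10 of the 12 leading falls (the exceptions are miR-1 and miR-499).

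All 3 day 4 arrays lay above all 3 day 0 arrays for 75 miRNAs (32.5%) and below them for 80 (34.6%), together 67.1% of those tested. These included 132 of the 134 called. The change was thus visible in the single arrays, as the later plot of levels on each array shows for the leading members. The plot of change against level gives the size of the change for every miRNA measured.

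**Figure D1:**
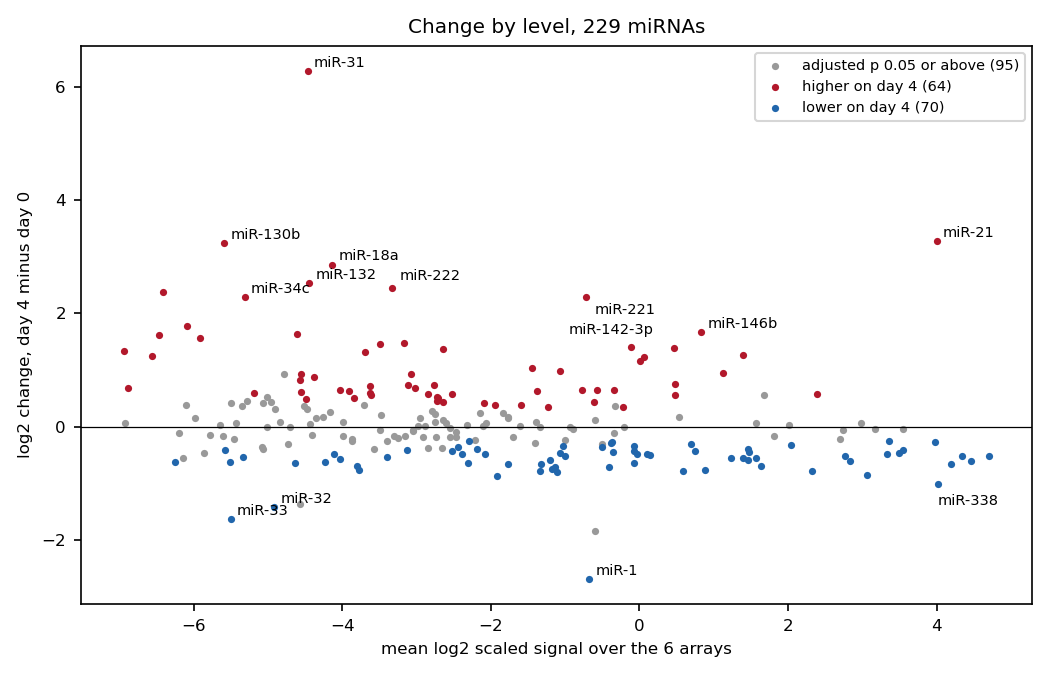
Each point is 1 of the 229 miRNAs, with its mean log2 scaled signal over the 6 arrays on the x axis and its log2 change (day 4 minus day 0) on the y axis. Red points (64) were higher, blue points (70) lower and grey points (95) did not pass; the highest rise is 6.29, and among the blue points the largest falls after miR-1 are -1.63 and -1.42.

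miR-31 made the largest rise. It is a miRNA linked to wound repair and inflammation in skin and other tissues. It was detected on none of the day 0 arrays, where all 3 values stood at the floor of -7.61, and its day 4 levels were -1.52, -1.14 and -1.32. The groups did not overlap, and day 4 was at least 55.8-fold higher, taking the day 0 level at the lowest signal that was detected (log2 change against the floor 6.29 ± 0.16 SE, n = 3 and 3, adjusted p = 7.5e-13).

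miR-21, which is induced in many injured and inflamed tissues, was already measured in intact nerve, at 2.22, 2.39 and 2.47. On day 4 it stood at 5.45, 5.79 and 5.68, far above every day 0 array. The rise was 9.74-fold (3.28 ± 0.13, adjusted p = 1.1e-10). Its other strand, miR-21*, was detected on none of the day 0 arrays and on all day 4 arrays, at -5.24, -5.10 and -5.34, at least 3.74-fold higher. Both strands of the hairpin were therefore higher, although only 3 of the 4 miR-21* probes showed the rise.

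Other members of the group of miRNAs induced in inflammation split by name. Its median change was 2.03: 6 of the 8 measured members rose and 2 fell. miR-132, a CREB-responsive miRNA, went from -5.69, -5.69 and -5.75, none of them detected, to -3.30, -3.07 and -3.18, at least 5.77-fold higher. miR-146b, a brake on Toll-like receptor signalling, rose from -0.22, 0.14 and 0.08 to 1.64, 1.72 and 1.65 (1.67 ± 0.13, adjusted p = 1.2e-07). miR-146a fell, from 0.03, 0.14 and 0.24 to -0.31, -0.30 and -0.26 (-0.42 ± 0.09, adjusted p = 0.0011). miR-9, the other fall, is described with the Schwann cell group, to which it also belongs.

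Leukocyte miRNAs rose with them. Their median change was 1.32: 4 of the 5 measured members rose and 1 fell. miR-223, the myeloid miRNA, went from -0.36, -0.13 and -0.20 to 1.11, 1.08 and 1.31 (1.40 ± 0.17, adjusted p = 1.5e-05). miR-142-3p, found across blood cells, went from -0.92, -0.71 and -0.82 to 0.49, 0.68 and 0.61 (1.41 ± 0.12, adjusted p = 4.1e-07), and miR-142-5p from the same hairpin rose by 1.32 ± 0.12. Every day 4 array was above every day 0 array for these 3.

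miR-342-3p rose by 0.39 ± 0.11 (adjusted p = 0.0079), but changed by -0.02 with no scaling and by 0.13 with the 15-array percentile, and was called with neither. miR-150, abundant in mature lymphocytes, fell by 0.34 ± 0.11 (adjusted p = 0.014). That call was lost without day 0 replicate 2 (adjusted p = 0.053) or day 4 replicate 3 (0.077), with quantile normalisation and with the deposited table. The summed scaled signal of the leukocyte group was 2.14 to 2.45 on day 0 and 4.52 to 4.91 on day 4, and its part in the other changes was not tested.

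The miR-221/222 pair rose together; both target the message of p27, an inhibitor of the cell cycle. miR-221 went from -1.97, -1.83 and -1.79 to 0.39, 0.46 and 0.41, a 4.86-fold rise (2.28 ± 0.11, adjusted p = 1.3e-09). miR-222 went from -4.87, -4.47 and -4.33 to -2.15, -2.08 and -2.12, a 5.44-fold rise (2.44 ± 0.20, adjusted p = 3.5e-07). Their mature sequences lie within 1 stretch of the X chromosome (chrX:6022682-6023268, plus strand, GRCr8), and they rose by similar amounts.

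The miR-17-92 cluster and its paralogs, which promote proliferation, were mostly higher: their median change was 0.98, with 9 of 11 measured members up and 2 down. All 6 members that map to the cluster on chromosome 15 (chr15:98587861-98588622, plus strand) rose. Their changes ran from 0.65 for miR-92a to 2.86 for miR-18a. miR-18a went from -5.23, -5.56 and -5.92, detected on 1 array, to -2.73, -2.60 and -2.78 (2.86 ± 0.16, adjusted p = 5.5e-09).

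In between were miR-19a (1.48 ± 0.13), miR-20a (1.23 ± 0.11), miR-19b (1.16 ± 0.11) and miR-17-5p (0.98 ± 0.11). The cluster on chromosome 12, inside the gene for the replication factor Mcm7, also rose as a whole, with miR-93 at 1.04 ± 0.13, miR-106b at 0.65 ± 0.11 and miR-25 at 0.44 ± 0.11. With no scaling miR-25 changed by 0.03, miR-106b by 0.25 and miR-92a by 0.24, and these 3 calls were lost, that of miR-25 also with the 15-array percentile (0.18).

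The 2 falls were miR-20b-5p (-0.42 ± 0.15, adjusted p = 0.028) and miR-363 (-0.35 ± 0.14, adjusted p = 0.044), both from the paralogous cluster on the X chromosome (chrX:137342788-137343637, minus strand). Each of these calls was lost when any 1 array but day 0 replicate 1 was left out, with adjusted p up to 0.119 and 0.164. The other mature forms of that cluster, miR-92a, miR-19b and miR-17-5p, have the same sequences as those from chromosome 15 and cannot be assigned to either.

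miR-130b was detected on none of the day 0 arrays and rose from -6.80, -7.24 and -7.61 to -4.05, -3.81 and -4.06, at least 8.32-fold. Its close relative miR-130a, which differs from it at 2 of 22 bases, changed by -0.17 ± 0.12 and did not pass. miR-301a, of the same list, fell by 0.80 ± 0.15 (adjusted p = 5.3e-04).

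In the p53-responsive miR-34 family, miR-34c rose at least 4.90-fold, from -6.87, -6.33 and -6.20 to -4.23, -4.06 and -4.22. miR-34b rose by 1.65 ± 0.16 from -5.73, -5.25 and -5.34. miR-34a, encoded elsewhere, was at 1.44, 1.47 and 1.71 on day 0 and at 1.54, 1.67 and 1.58 on day 4, a change of 0.06 ± 0.13 that did not pass. It was called lower with no scaling (-0.35) and higher with quantile normalisation (0.30) and with the deposited table (0.26).

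The X chromosome cluster of miR-322, miR-503, miR-351, miR-542 and miR-450a (chrX:137720985-137726219, minus strand), known in muscle and cell cycle exit, had 4 of its 7 measured forms higher and none lower. miR-503 rose from -3.44, -2.98 and -3.57 to -2.08, -1.91 and -1.90 (1.37 ± 0.14, adjusted p = 2.3e-06). miR-542-3p rose by 0.58 ± 0.12 and miR-322 by 0.35 ± 0.10, although miR-322 changed by -0.06 with no scaling and by 0.10 with the 15-array percentile, and was called with neither. miR-351 was detected on none of the day 0 arrays and stood at -5.69, -5.66 and -5.63 on day 4, at least 2.71-fold higher. With a floor 4 times as high, both of its groups were at the floor. The rest of this cluster, miR-450a (-0.06 ± 0.12) and miR-542-5p (0.01 ± 0.13) among them, did not pass.

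**Figure D2:**
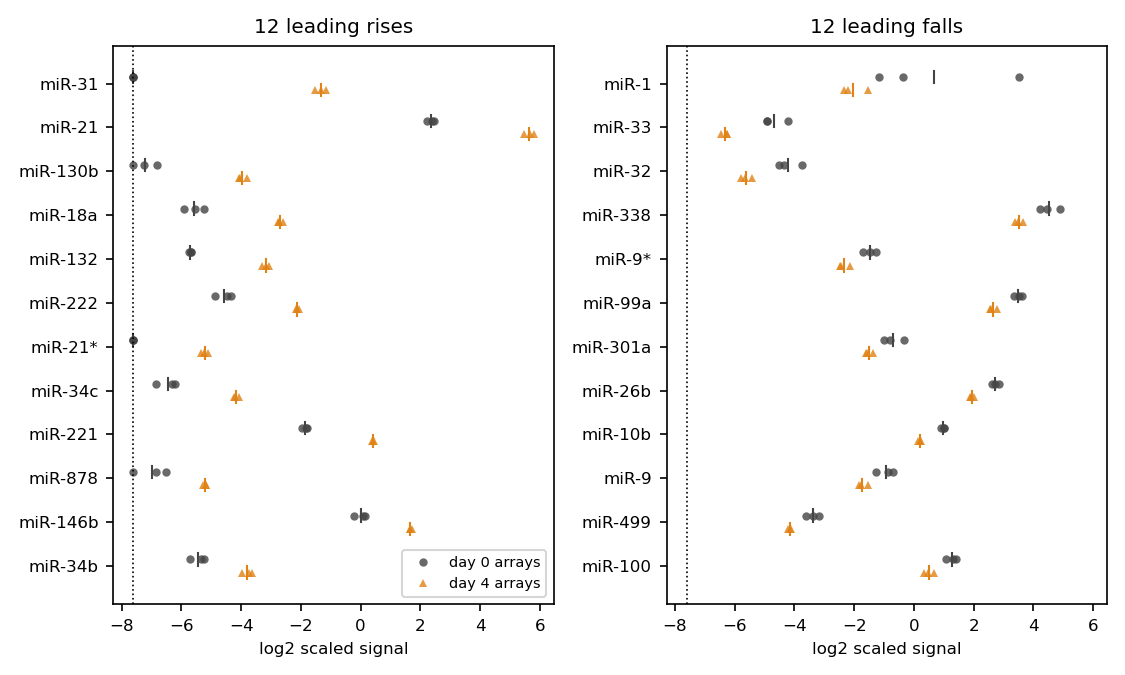
Log2 scaled signal (x axis) of the 12 leading rises (left) and 12 leading falls (right) on the 3 day 0 arrays (grey circles) and 3 day 4 arrays (orange triangles); the vertical ticks are group means and the dotted line is the floor at -7.61. No miRNA shown has overlapping groups, and for miR-1 a single day 0 array lies at 3.52.

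miRNAs of Schwann cells and myelin fell. Of 7 measured members 6 fell and none rose, with a median change of -0.72. miR-338, enriched in myelinating glia, went from 4.23, 4.46 and 4.87 to 3.67, 3.48 and 3.38, a 2.02-fold fall (-1.01 ± 0.17, adjusted p = 2.2e-04), and miR-338* fell by 0.70 ± 0.18. The 3 day 4 arrays were below all day 0 arrays.

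miR-9 fell by 0.78 ± 0.15, from -1.26, -0.86 and -0.72 to -1.55, -1.77 and -1.85, and its other strand miR-9* by 0.88 ± 0.13. Both strands of miR-9, like both of miR-338, were lower. miR-138, a regulator of the Schwann cell switch between immature and myelinating states, fell by 0.72 ± 0.17, from -0.31, 0.00 and 0.15 to -0.55, -0.89 and -0.86 (adjusted p = 0.0033).

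miR-204 fell by 0.40 ± 0.14 (adjusted p = 0.025), a call lost without day 0 replicate 2 or 3 or day 4 replicate 2 or 3, with adjusted p up to 0.103, and with quantile normalisation (-0.10). The remaining member, miR-211, which shares the miR-204 seed, changed by 0.06 and did not pass. The miR-219 forms, which mark oligodendrocytes, were not detected on all 3 arrays of either group. The summed scaled signal of the group was 23.1 to 35.3 on day 0 and 13.8 to 16.8 on day 4.

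miR-33 and miR-32 made the largest falls that did not rest on 1 array. miR-33, which lies within the gene for the sterol regulator Srebf2 and represses cholesterol export, went from -4.92, -4.92 and -4.23 to -6.28, -6.45 and -6.24 and was detected on 2 of the day 4 arrays (-1.63 ± 0.19, adjusted p = 6.8e-06). miR-32, within the gene Tmem245, went from -4.51, -4.37 and -3.74 to -5.65, -5.79 and -5.44 (-1.42 ± 0.19, adjusted p = 3.0e-05). Both are dim, and with the normexp background correction miR-33 did not move and miR-32 changed by -0.05, so neither was called. Here and below, that correction adds 50 to every signal, where the median miRNA signal was 19.5 to 22.9 on these 6 arrays. The added constant shrinks any change of a dim miRNA, so a call lost there cannot decide whether such a miRNA changed.

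The let-7 family, which holds cells in a differentiated state, fell in full: 8 of 8 members were lower, with changes from -0.65 to -0.26 and a median of -0.53. let-7c went from 4.39, 4.55 and 4.60 to 3.96, 3.82 and 3.82 (-0.65 ± 0.11, adjusted p = 2.0e-04). miR-98, the member with the smallest adjusted p, went from 0.17, 0.24 and 0.36 to -0.38, -0.45 and -0.34 (-0.65 ± 0.09, adjusted p = 7.4e-05). The summed scaled signal of the family fell from 101 to 118 on day 0 to 73.7 to 78.6 on day 4, with no overlap.

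The bright members of let-7 depended on the scaling. With quantile normalisation let-7a changed by -0.10, let-7c by -0.14 and let-7f by -0.04, and with the deposited value table by -0.08, -0.10 and -0.05, and these calls were lost. let-7d (-0.51 ± 0.10), let-7e (-0.55 ± 0.09) and miR-98 were called under all 5 other scalings.

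Members of several other families fell. miR-10b, encoded next to Hoxd4, went from 0.91, 1.01 and 1.00 to 0.25, 0.14 and 0.20, the smallest adjusted p among the falls (-0.78 ± 0.08, adjusted p = 4.0e-06). Of the 5 measured miR-10 and miR-196 forms 4 fell, among them miR-196b (-0.66 ± 0.11) and miR-196a (-0.52 ± 0.08), and miR-196c changed by -0.17 ± 0.10 and did not pass.

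In the miR-30 family 8 of 9 measured forms fell, with a median of -0.46 and miR-30c the lowest at -0.69 ± 0.12. All 4 measured forms of miR-26, miR-148b and miR-152 fell, led by miR-26b, which went from 2.61, 2.70 and 2.84 to 2.02, 1.86 and 1.91 (-0.79 ± 0.09, adjusted p = 1.1e-05). miR-99a (-0.86 ± 0.13), miR-100 (-0.77 ± 0.14) and miR-125b-5p (-0.53 ± 0.15) fell in a group of 9 in which 5 fell and 2 rose. The plot by groups shows these families mostly left of 0.

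None of the 5 measured miR-181 forms passed, with changes from -0.37 for miR-181c to 0.12 for miR-181b. By scaling, 5 were lower with none, 4 with quantile normalisation, 3 with the deposited table and 2 with each of the other percentiles. Of 6 measured forms of miR-23, miR-24 and miR-27, 3 fell and none rose, miR-23b by 0.41 ± 0.11, and that call was lost with quantile normalisation (-0.15). There 2 forms were higher and 1 lower, 2 were higher and 2 lower with the deposited table, 5 were lower with the 15-array percentile, and all 6 were lower with no scaling. The bright miR-24 changed by -0.04 ± 0.11 and miR-27a by 0.07 ± 0.11, and the direction of both depended on the scaling.

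**Figure D3:**
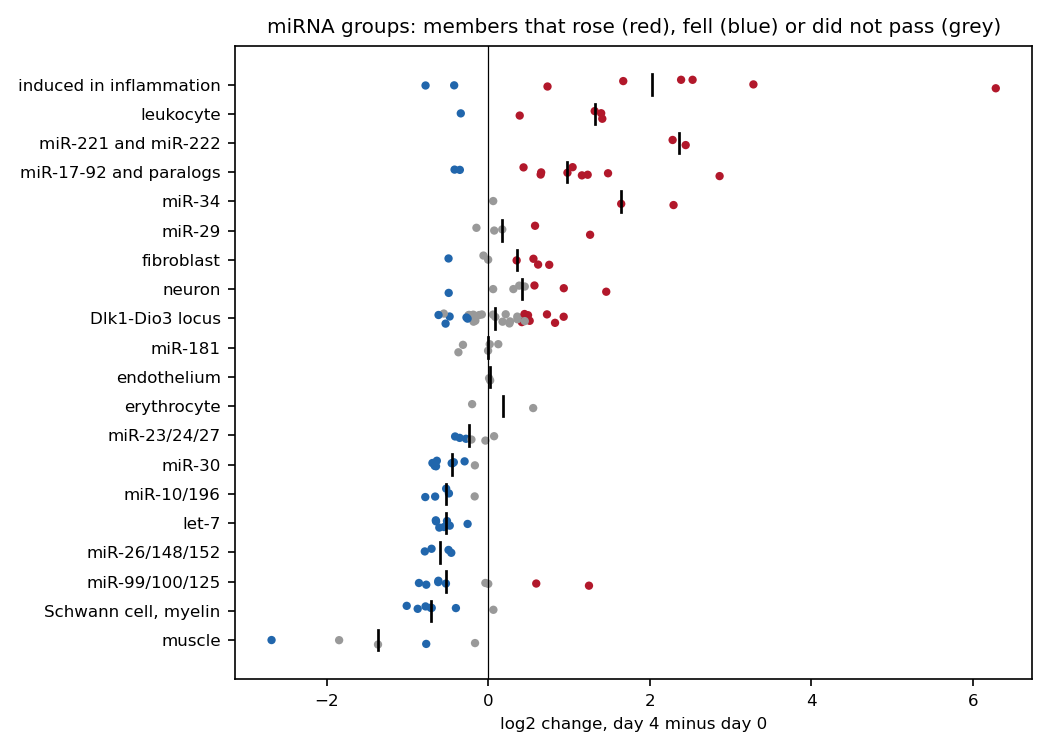
Log2 change (day 4 minus day 0) on the x axis for the members of 20 miRNA groups on the y axis; red points rose, blue points fell, grey points did not pass, and the black bar is the group's median. The inflammation group has the highest points and a median of 2.03, while all 8 let-7 points lie between -0.65 and -0.26.

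Of the 5 measured muscle miRNAs 2 fell, miR-1 and miR-499, and day 0 replicate 1 weighed heavily in most of them. miR-1 was at 3.52 on day 0 replicate 1, at -1.18 and -0.36 on replicates 2 and 3, and at -1.53, -2.19 and -2.35 on day 4 (-2.69 ± 0.97, adjusted p = 0.030). Without day 0 replicate 1 its change was -1.26 (adjusted p = 0.121), and the call was also lost without day 4 replicate 2 (0.074) or replicate 3 (0.078). miR-133a (-1.37 ± 0.73), miR-133b (-1.85 ± 0.90) and miR-206 (-0.17 ± 1.00) did not pass, although miR-133a and miR-133b did without day 0 replicate 2 (adjusted p = 0.033 and 0.019).
The muscle-expressed miR-499 fell by 0.77 ± 0.19 without such an outlying array, from -3.40, -3.61 and -3.18 to -4.13, -4.13 and -4.23. It was not called with the normexp correction (-0.09), the total gene signal or the deposited table.

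Markers of other cells that a nerve segment can hold showed no common direction. The endothelial miR-126 was at 1.95, 2.02 and 2.02 on day 0 and at 1.99, 1.99 and 2.08 on day 4 (0.02 ± 0.09), and miR-126* changed by 0.01 ± 0.09. The red cell miR-451 varied more within groups than between them, at 2.34, 2.00 and -0.12 on day 0 and 2.50, 2.03 and 1.34 on day 4 (0.55 ± 0.57). The summed scaled signal of the 2 red cell miRNAs ran from 0.966 to 5.25 on day 0 and from 2.60 to 5.81 on day 4.

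Of the smooth muscle pair, miR-143 fell by 0.33 ± 0.10 (adjusted p = 0.014), a call lost without day 0 replicate 3 (0.057) or day 4 replicate 2 (0.070), and miR-145 changed by -0.19 ± 0.12. The epithelial forms miR-200a, miR-200b, miR-200c, miR-141 and miR-429 were not detected on all 3 arrays of either group, and miR-203 and miR-205 did not pass (-0.01 ± 0.13 and -0.06 ± 0.11). The liver and pancreas forms miR-122 and miR-375 were likewise not detected on all 3 arrays of either group. Of the others on that list miR-192 fell by 0.57 ± 0.11, but not with normexp (0.02), and miR-194 did not pass (-0.36 ± 0.15). miR-210, the hypoxia miRNA, changed by 0.22 ± 0.16 and did not pass.

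Fibroblast and matrix miRNAs were mixed, as were all miRNAs tested (27.7% higher and 30.3% lower). Of 7 fibroblast forms 4 rose and 1 fell: miR-214 rose by 0.75 ± 0.12, miR-455 by 0.62 ± 0.12 and miR-199a-5p by 0.56 ± 0.13, and miR-152 fell by 0.49 ± 0.11. miR-199a-5p changed by 0.15 and miR-455 by 0.21 with no scaling, and neither was called there; miR-455 was not called with the deposited table either. With no scaling 1 of the 7 was higher and 3 lower, with the 15-array percentile 3 and 3, and with quantile normalisation 6 and 1. In the miR-29 family, which represses collagens, miR-29b went from 0.64, 0.59 and 1.08 to 2.04, 2.09 and 1.97 (1.26 ± 0.13, adjusted p = 2.9e-06) and miR-29a rose by 0.58 ± 0.11. miR-29c, which has the same seed, changed by 0.17 ± 0.12 and did not pass.

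Of 8 measured miRNAs known from neurons, 3 were higher and 1 lower (median 0.42). Of all miRNAs tested 27.7% were higher and 30.3% lower. miR-7a went from -4.24, -4.28 and -4.15 to -2.84, -2.75 and -2.70 (1.46 ± 0.11, adjusted p = 9.5e-08). miR-137 rose by 0.93 ± 0.16 and was called under 4 of the 5 other scalings. miR-124, the most neuron-restricted of them, rose by 0.57 ± 0.17, but by 0.16 with no scaling and 0.32 with the 15-array percentile, where it was not called. miR-218, a motor neuron miRNA, fell by 0.49 ± 0.14.

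Of the 33 measured miRNAs of the imprinted Dlk1-Dio3 locus 8 rose and 5 fell, with a median of 0.09, against 27.7% and 30.3% of all miRNAs tested. The balance turned with the scaling, from 13 rises and 5 falls with the percentile over all miRNAs to 2 and 16 with no scaling. The leading rises, miR-543* (0.93 ± 0.27) and miR-323 (0.83 ± 0.13), kept their sign under all 5 other scalings and were each called under 4 of them.

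Members of a seed family did not always move together. Families were formed from the 183 miRNAs with a matched sequence, so those without one, miR-301a and miR-99a among them, are not counted. Of these miRNAs, 77 were in 27 families with 2 or more members. In full, 3 families rose and 5 fell, and 6 held both rises and falls. In 3 families no member was called, where 58% of all miRNAs tested were. The whole-family rises were miR-19, miR-221/222 and the family of miR-132, and let-7 was among the whole-family falls. In the family of miR-132, miR-212 rose by 0.73 ± 0.26 (adjusted p = 0.027) and was called in 1 of the 5 other scalings.

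The miR-146 pair differ at 2 of their first 22 bases (G18A and U21C, position counted from the 5′ end, miR-146a first), outside the seed, and moved by -0.42 and 1.67. With the seed CCCUGAG, miR-351 was at least 2.71-fold higher, miR-125b-5p fell by 0.53 ± 0.15 and miR-125a-5p changed by -0.0018 ± 0.11 and did not pass. With the seed AUUGCAC, miR-92a (0.65 ± 0.13) and miR-25 (0.44 ± 0.11) rose and miR-32 (-1.42 ± 0.19) and miR-363 fell. miR-92b, not detected on day 0, changed by 0.02 ± 0.29.

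With the seed AGCAGCA, miR-15b went from 0.67, 0.72 and 0.56 to 1.58, 1.65 and 1.54 (0.94 ± 0.10, adjusted p = 2.8e-06). Its neighbour miR-16, whose hairpin also lies within Smc4, was at 3.41, 3.63 and 3.65 and then at 3.57, 3.49 and 3.51, a change of -0.04 ± 0.10 that turned to 0.22 with quantile normalisation. miR-195, which differs from miR-16 at 2 of 21 bases (G10A and U11G, miR-16 first), fell by 0.56 ± 0.09 (adjusted p = 1.8e-04). miR-497, from the same chromosome 10 cluster as miR-195, fell by 0.30 ± 0.11, a call lost when day 0 replicate 2 or 3 or day 4 replicate 2 or 3 was left out (adjusted p up to 0.117).

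With the seed AAAGUGC, miR-20a, miR-93, miR-17-5p and miR-106b rose and miR-20b-5p fell. miR-20a and miR-20b-5p differ at 2 of 23 bases, U1C and U10C with miR-20a first. In the last family miR-99b* was at least 1.91-fold higher, and at the floor in both groups with a floor 4 times as high, and miR-99a* fell by 0.62 ± 0.23 (adjusted p = 0.031). The miR-99a* call was lost without day 0 replicate 2 or 3 or day 4 replicate 2 or 3 (adjusted p up to 0.102).

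**Figure D4:**
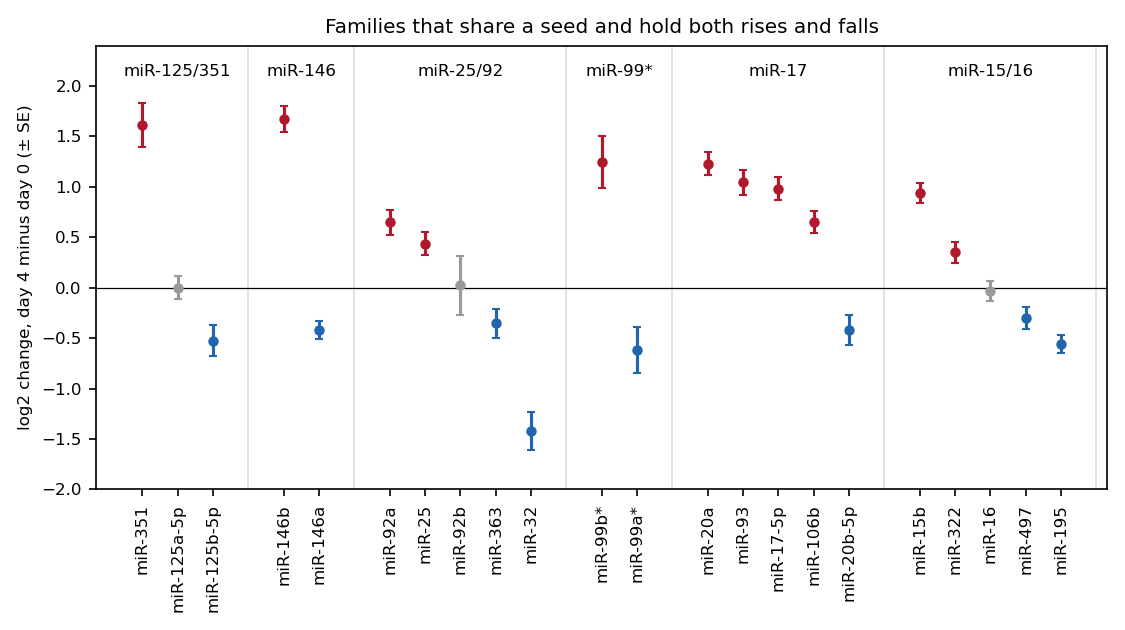
Log2 change (day 4 minus day 0, y axis, bars ± SE, n = 3 and 3) for the members of the 6 families in which bases 2 to 8 are the same and at least 1 member rose (red) and 1 fell (blue); grey members did not pass. Only miRNAs with a matched sequence were grouped into families. The miR-146 pair lies at 1.67 and -0.42, and the miR-25/92 family spans 0.65 to -1.42.

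The 2 strands of a hairpin come from 1 precursor, and 36 pairs of strands, matched by name, were measured. Some strands are encoded at several sites, miR-7a, miR-24 and miR-30c at 2 each and miR-9 at 3. Their pairs can therefore mix several hairpins. Both rose in 4 and both fell in 8, 1 of the pair was called in 15, none in 7, and 2 pairs were called in opposite directions. Over all miRNAs tested 58% were called. miR-340-5p went from -3.54, -3.42 and -3.15 to -2.64, -2.72 and -2.70 (0.69 ± 0.13), while miR-340-3p went from -3.31, -3.13 and -2.98 to -3.65, -3.67 and -3.69 (-0.53 ± 0.11). The levels of each strand did not overlap between groups, but miR-340-3p was not called with the normexp correction (-0.06) nor miR-340-5p with no scaling (0.28).

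miR-376b-3p rose by 0.51 ± 0.12 and miR-376b-5p fell by 0.53 ± 0.16, the second on 2 of its 4 probes and not with normexp (0.15). The widest gap between strands without muscle miRNAs was that of miR-99b, at -0.04 ± 0.13, and miR-99b*, at 1.25 ± 0.26. miR-7a, which is encoded by 2 hairpins, rose by 1.46 while miR-7a* changed by 0.38 ± 0.21 and did not pass. Over all pairs, 22 of 36 had changes of the same sign.

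Clusters were likewise drawn only from miRNAs with a matched sequence. Neighbouring hairpins, here those within 10 kb on 1 strand, made 32 clusters (a form encoded at several sites counts in each) with 2 or more measured forms. In 5 of them all forms rose, in 4 all fell, and in 3 some rose and others fell, where 27.7% of all miRNAs tested rose and 30.3% fell. The mixed clusters were the X-linked miR-17-92 paralog, the Dlk1-Dio3 locus and the cluster on chromosome 1 (chr1:67350070-67350748, plus strand) within Spaca6, where miR-99b* and miR-125a-3p (0.59 ± 0.15) rose and let-7e fell. The miR-125a-3p call was lost with no scaling (0.19), with the 15-array percentile (0.34) and with the deposited table (1.11). In miR-100 and let-7a on chromosome 8 (chr8:50798307-50805240, plus strand) both forms fell.

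Detection changed more often towards day 4. Of the 229 miRNAs, 31 were detected on all day 4 arrays but not on all day 0 arrays, 12 of them on no day 0 array, and 1, miR-33, was detected on all day 0 arrays but not on all day 4 arrays. Among the 12 with no detection on day 0, miR-878 (at least 2.94-fold) and miR-743a (at least 2.77-fold) rose as well as those given above. miR-1*, miR-29a* and miR-92b did not pass. A further 104 miRNAs were detected on none of the 6 arrays.

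Close to the threshold, miR-411, miR-363 and miR-23a passed with adjusted p of 0.044, 0.044 and 0.041. miR-328, miR-136* and miR-101b fell outside it with 0.051, 0.053 and 0.053. miR-411 and miR-23a each lost the call when any 1 array but day 0 replicate 1 was left out (adjusted p up to 0.149 and 0.142), and miR-23a changed by 0.05 with quantile normalisation.

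Day 4 also stood apart from day 1. This comparison takes no uninjured array into its difference, but shares the day 4 arrays with the comparison above. The day 0 arrays still entered the estimate of the spread and the choice of miRNAs for the percentile. Of 231 miRNAs 115 differed (49.8%), 71 higher on day 4 (30.7%) and 44 lower (19%). miR-31 averaged -4.24 ± 0.23 (SD, n = 3) on day 1 and -1.33 ± 0.19 on day 4, a difference of 2.91 (adjusted p = 1.7e-08). miR-21 averaged 4.07 ± 0.21 and 5.64 ± 0.17, a difference of 1.58. Both means were thus higher on day 1 than on day 0 and higher again on day 4. All day 1 arrays were on slide 2, scan 2 and all day 7 arrays on slide 4, scan 4. Slide, scan and day therefore cannot be told apart when day 4 is set against either.

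Members of the X-linked cluster of miR-503 also differed between these days. miR-542-3p averaged -2.81 ± 0.13 on day 0, -3.70 ± 0.19 on day 1 and -2.23 ± 0.19 on day 4, 1.47 higher on day 4 than on day 1 (adjusted p = 1.1e-06). miR-503 was 1.45 higher and miR-351, at the floor on all day 1 arrays, 1.95 higher against the floor. On the other side, miR-760-3p was 2.15 lower on day 4 than on day 1. It was detected on no day 4 array, and its day 4 mean of -7.60 was close to the floor. miR-327 was 1.86 lower and was detected on 1 day 4 array.

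The muscle miR-1, miR-133a and miR-133b were also lower on day 4 than on day 1 (-2.88, -1.99 and -2.53). miR-1 lost this call without day 4 replicate 2 or 3 or day 1 replicate 1 or 3. miR-133a and miR-133b lost it when any 1 array but day 1 replicate 2 was left out, with adjusted p up to 0.100 and 0.092.

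Day 4 and day 7 were close. Of 231 miRNAs 14 differed (6.06%), 11 higher on day 4 (4.76%) and 3 lower (1.3%), a count that ran from 1 to 73 over the alternatives. miR-878 (1.26), miR-21* (1.03) and miR-743a (1.00) were higher on day 4 in every leave-one-out fit. Of the 5 other scalings, miR-21* was called under 4, and miR-878 and miR-743a under all 5. However, miR-878, miR-743a and miR-672 were detected on no day 7 array. miR-672 (1.20), miR-466b (0.93) and miR-30c-1* (-1.25) each lost the call without day 4 replicate 1 or day 7 replicate 1, and miR-672 also without day 7 replicate 2 (adjusted p up to 0.078). miR-455 (-0.55) and miR-335 (-0.50) lost it without day 4 replicate 1 or 2 or day 7 replicate 2 or 3 (adjusted p up to 0.078 and 0.154).

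The levels over all 5 times place day 4 in the series, although days 0, 1, 4 and 7 were each on a different slide and scan. miR-338 averaged 4.52 ± 0.33 on day 0, 3.89 ± 0.22 on day 1, 3.51 ± 0.15 on day 4, 3.53 ± 0.08 on day 7 and 3.78 ± 0.26 on day 14. let-7c averaged 4.52 ± 0.11, 4.19 ± 0.14, 3.86 ± 0.08, 3.75 ± 0.12 and 3.75 ± 0.15 at the same times. miR-31 averaged -1.59 ± 0.18 on day 7 and -2.66 ± 0.29 on day 14, with its highest mean on day 4.

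**Figure D5:**
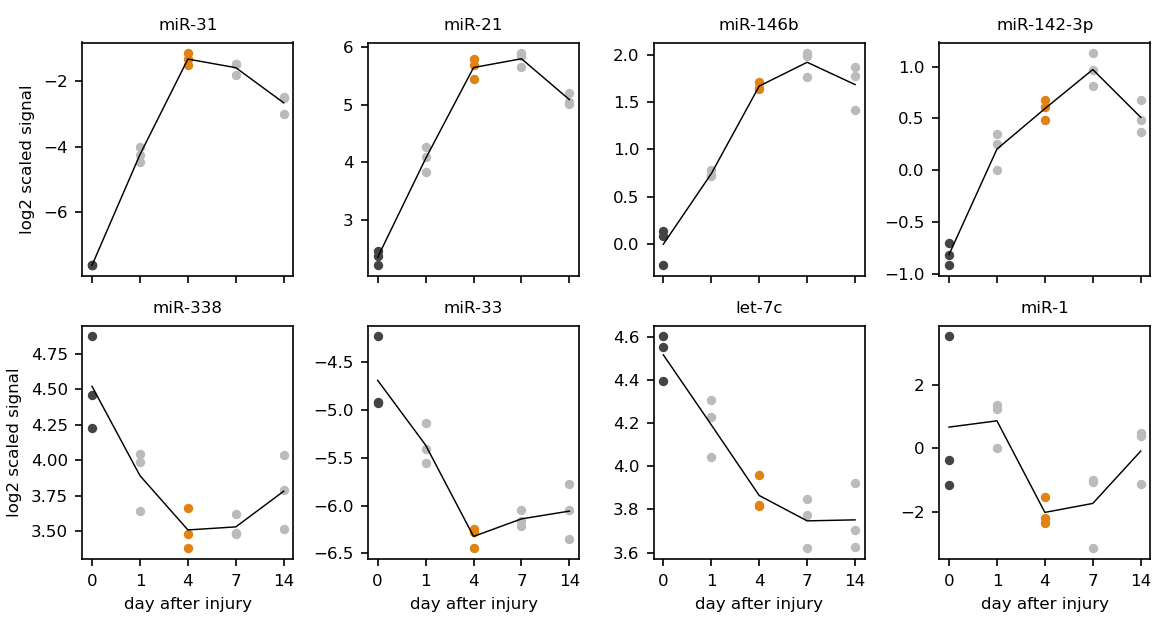
Log2 scaled signal (y axis, a different range in each panel) of 8 miRNAs on the 3 arrays of each day after injury (x axis, days 0 to 14, evenly spaced and not to scale); grey dark points are day 0, orange points day 4, light points the other days, and the line joins group means. The means of miR-31 and miR-21 are higher on day 1 than on day 0 and higher again on day 4. miR-1 has 1 day 0 array far above the other 2.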

How the data were processed

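Total RNA was labelled with Cy3 and hybridised to 1-colour Agilent rat miRNA arrays. The authors' deposited scanner files hold background-subtracted signal intensity per spot that the file headers credit to Agilent Feature Extraction, version 10.7.3.1, and the authors' deposited value table holds log2 values whose exact normalisation is not given in the sources used here. It has 349 of the 350 miRNAs, and its columns correlated at 0.965 or more with the arrays' total gene signal. Processed signals of non-outlier spots were averaged per probe and then per miRNA (938 probes), divided by the array's 75th percentile over the 197 miRNAs detected on all 6 arrays compared, set to a floor of 0.00511, and put on the log2 scale. These 6 arrays, not all 15, set the percentile because a day 14 array with few detected miRNAs otherwise chose the set. Scaled signal in the text is the same value before the log.

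limma 3.58.1 (R 4.3.3) fitted 5 group means over the 15 arrays for 231 miRNAs, each detected on all 3 arrays of some group. Tests were two-sided with Benjamini-Hochberg adjusted p-values at 0.05. On data simulated for day 4 minus day 0, 60 of 231 miRNAs were changed, as many up as down. The fit recovered 80.2% of the changed miRNAs at a 1.5-fold change, 93.5% at 2-fold and 98.5% at 4-fold, with 3.46% false calls. The simulation gave each miRNA the same spread in all groups and left out the scaling and the floor. Its rates therefore do not cover the larger day 0 spread or the dependence on scaling. A fold marked "at least" sets the day 4 mean against, per day 0 array, the higher of the miRNA's signal and the lowest detected signal.

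The miRNAs named are the 12 largest rises and 12 largest falls with no overlap, those detected on all arrays of 1 group and none of the other, up to 6 per list by adjusted p, hairpins with strands that differ, families with both directions, 3 on each side of the threshold, and a fixed set. miR-211, miR-212 and miRNAs that were not detected are named besides, chosen after their values were seen. The comparison and the 30 lists were chosen with earlier results of these data known. Replicate numbers are not stated to pair the arrays, and the main fit did not pair them. Same-numbered day 0 and day 4 arrays correlated at -0.03, 0.22 and 0.08 in their deviations from group means. With 3 arrays per group these values cannot decide whether the arrays were paired.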

Additional observations from a re-analysis of the deposited data

How the results depend on the processing

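Of 2878 alternative values for the 146 miRNAs named by the rule, 2566 kept both direction and side of the threshold, 149 lost a call, 135 gained one and 28 changed sign. Without scaling 33 miRNAs were higher and 124 lower. The other alternatives left the counts of rises between 45 and 87 and of falls between 48 and 105, and leaving out 1 day 0 or day 4 array gave 58 to 70 rises and 53 to 74 falls. The replicate block gave 67 rises and 76 falls and changed no call of a rise or fall in the text to a miss. The count for day 4 against day 1 was 69 with normexp. The count for day 4 against day 7 was 22 with the percentile over all miRNAs, 31 with no scaling, 22 with the deposited table, 33 with quantile normalisation, 1 with normexp, 5 over miRNAs detected on all 15 arrays and 73 with array quality weights, and 4 to 16 when 1 array, also of day 14, was left out.

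The scalings moved the median change of all miRNAs, to -0.26 with the 15-array set, -0.41 with none, -0.13 with quantile normalisation, -0.10 with the deposited table and 0.15 with normexp. These are the sign changes. With normexp (on the median signal, since the files give no mean signal, a choice made after seeing the data) miR-125b* changed by 0.20, miR-192 by 0.023, miR-30c-2* by 0.086, miR-376b-5p by 0.15 and miR-99a* by 0.035. With no scaling miR-126* changed by -0.40, miR-140* by -0.057, miR-181b by -0.28, miR-181d by -0.39, miR-27a by -0.34, miR-322 by -0.056, miR-342-3p by -0.019, miR-34a by -0.35 and miR-542-5p by -0.39, and with the 15-array set miR-126* by -0.25. With quantile normalisation miR-140 changed by 0.24, miR-16 by 0.22, miR-199a-3p by 0.30, miR-23a by 0.046, miR-24 by 0.17, miR-181d by -0.25 and miR-542-5p by -0.29. With the deposited table miR-140 changed by 0.25, miR-16 by 0.27, miR-199a-3p by 0.22, miR-23a by 0.040, miR-24 by 0.15 and miR-181d by -0.26. The cause was not tested. Signal near background limits the dim miRNAs most, and the 50 that normexp adds to every signal shrinks their changes. Of 132 called miRNAs with several probes, 14 had a probe that moved the other way or did not change.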
